A study of Homo sapiens with 24 samples.

Results

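The genes described here encode respiratory complexes II, III, IV and V (ATP synthase), cytochrome c, and the assembly and regulatory proteins that share their gene names. Members were taken by symbol: probes annotated to a gene whose name begins with UQC, with COX and a digit, or with ATP5, or to SDHA, SDHB, SDHC, SDHD, CYC1 or CYCS, with 3 pseudogene probes left out. This gave 89 probes for 62 genes, of 47323 probes and 20045 gene symbols on the array. Of these, 76 probes for 54 genes passed a filter on dim signals, and 8 genes had no probe above it (COX4I2, COX6A2, COX6B2, COX7A1, COX7B2, COX8C, COX18 and UQCC6). SDHB and UQCRFS1 were not analysed here. Samples came from 4 established human lines of Ewing sarcoma (SKNMC, TC32, TC71 and RDES), each kept for 24 h in 5 nM pladienolide B (PlaB), which inhibits splicing by binding the SF3b complex, or in 0.1% DMSO (vehicle). The sample labels name the DMSO vehicle, whereas the treatment protocol speaks of untreated cells. Total RNA was hybridised to Illumina beadchips, with 3 arrays for each line and treatment and 24 arrays in all. The labels do not tell whether the 3 samples of each group came from different cultures, and the p-values therefore cover only the scatter among those samples, which may be technical.

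Complex II (succinate dehydrogenase) takes electrons from succinate, an intermediate of the tricarboxylic acid cycle, and passes them to ubiquinone. Complex III moves them from ubiquinol to cytochrome c and complex IV from cytochrome c to oxygen. Both pump protons across the inner mitochondrial membrane, and ATP synthase lets the protons back through its membrane part to drive ATP formation in its F1 head. Complex II is built from nuclear-encoded subunits alone, whereas complexes III, IV and V combine nuclear-encoded subunits with a few made inside mitochondria from mitochondrial DNA. None of the subunits encoded in mitochondrial DNA was measured here.

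A level is the log2 of the background-corrected, quantile-normalised probe intensity, and each gene takes the value of the brightest of its tested probes. Precision is limited by the number of arrays. Normalisation sets arrays to one distribution, so levels are relative, and neither fewer cells nor less RNA per cell can be read from them. PlaB arrays detected 13821 to 16997 probes and vehicle arrays 16363 to 18736, with an overlap in TC71 alone, and the part of this in the results below was not tested. Arrays of one group correlated at 0.987 to 0.994. Of 9 Ewing sarcoma markers, 6 were detected on all 24 arrays (CD99, NKX2-2, STEAP1, STEAP2, PRKCB and EWSR1), and FLI1 was detected on 4. The endothelial markers CDH5 and VWF were detected on 0 arrays and PECAM1 on 3. The muscle marker MYOD1 was detected on 0 arrays, DES on 2 and MYOG on 4. Of the blood markers, CD14 was detected on 22 arrays and PTPRC and CD3E on 1 each. Of the fibroblast markers, DCN was detected on 17 arrays, LUM on 13 and PDGFRA on 1. The epithelial markers EPCAM, KRT19 and CDH1 were detected on 8, 2 and 1. The mean level of the 9 Ewing sarcoma markers was 6.52 to 7.07 on PlaB arrays and 7.28 to 7.66 on vehicle arrays. PRKCB stood at 7.61 with PlaB and 9.62 with vehicle, and STEAP2 at 5.61 with PlaB and 6.78 with vehicle. NKX2-2, STEAP1, VRK1 and LIPI were also lower with PlaB. The others were not lower: CD99 (9.33 with PlaB, 9.26 with vehicle), EWSR1 (8.67 and 8.53) and FLI1 (4.32 and 4.30). The mean of 3 blood markers was 4.45 to 4.85 on PlaB arrays and 4.23 to 4.51 on vehicle arrays, with CD14 at 5.47 with PlaB and 4.57 with vehicle. PTPRC (4.21 with PlaB, 4.23 with vehicle) and CD3E (4.24 and 4.18) stayed near background in both treatments. The part of these in the results was not tested.

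Averaged over the 4 lines, more members fell than rose after PlaB, and the counts were uneven between complexes. Falls were called for 14 of 18 ATP synthase genes and 2 of 3 succinate dehydrogenase genes. Structural subunits of complex IV gave 3 falls and 2 rises among 10 genes, and its assembly factors 1 fall and 4 rises among 8. In the limma fit, with Benjamini-Hochberg adjustment over all 17557 tested probes and a threshold of 0.05, 27 of the 54 genes fell (50% of members, 37.9% of all genes tested). Another 12 rose (22.2% of members, 32.3% of all genes), and 15 passed in neither direction. The median member response was -0.13 log2, beside -0.03 over all 10882 genes. Most changes were small: UQCC2 and ATP5PO fell 2-fold or more (3.13% of all genes did) and no member rose 2-fold (2.56%).

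The balance of calls depended in part on the scaling of the arrays. With arrays centred on their medians instead, the median response of all genes was -0.17, and 36 members fell and 6 rose. The members that fell under all 7 scalings tried numbered 23, and those that rose under all 7 numbered 6: COX10, COX16, COX19, COX11, UQCC1 and ATP5MJ. Shares of all genes were counted in the main setting alone, so none can be set beside these counts. The 4 falls lost under some scaling were those of UQCRQ, ATP5MG, COX7A2 and COX4I1, each smaller than 0.25 log2 in the main setting. UQCC3, UQCR11 and CYCS rose in the main setting and lay below 0 under median centring. Without background correction the responses of dim probes were smaller, at -0.33 for ATP5F1C, -0.15 for ATP5MK, -0.12 for UQCRC2, -0.13 for COX20, -0.40 for UQCC5, 0.10 for COX11, 0.46 for COX19 and 0.34 for UQCC1. The UQCC1 rise was 0.27 and the ATP5MJ rise 0.37 under median centring.

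**Figure D1:**
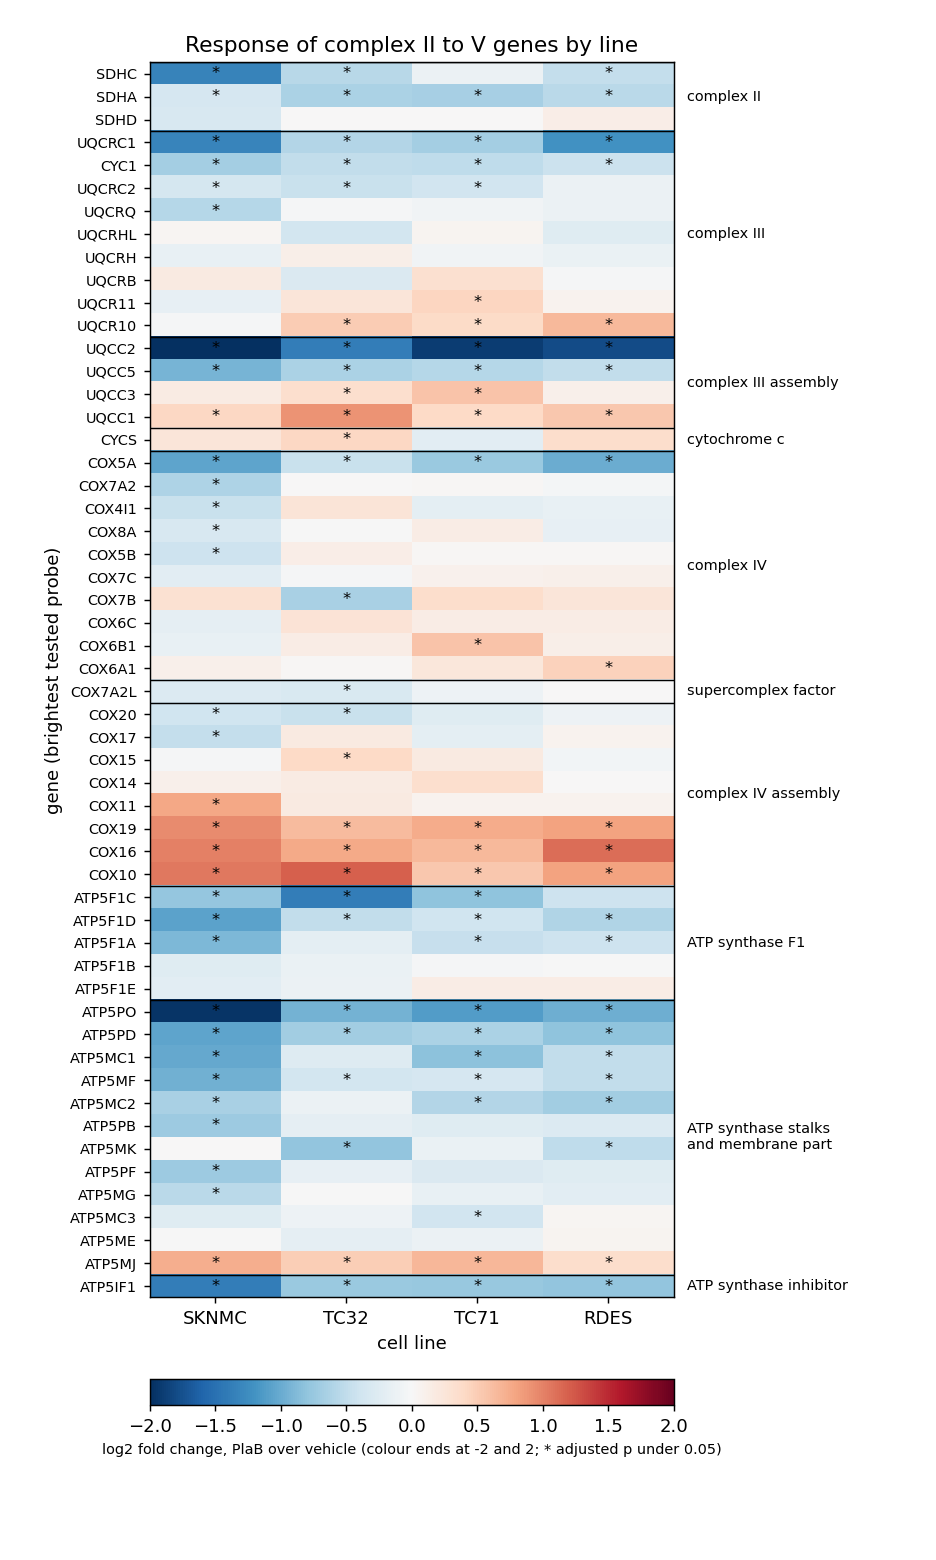
Response of the 54 tested member genes to PlaB in each line, as log2 of PlaB over vehicle (colour, with the scale ending at 2 in either direction), grouped by complex. Asterisks mark adjusted p under 0.05. ATP5PO, UQCC2 and ATP5IF1 are lower in every line, and COX10, COX16 and COX19 are higher in every line.

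Within single lines the counts kept the same tilt. In SKNMC 27 members fell and 6 rose (31.4% and 26.3% of all genes), with a median of -0.32 log2. TC32 had 18 falls and 9 rises (23.8% and 21.6% of all genes), with 33 falls and 3 rises under median centring. Over the 7 scalings the TC32 median ran from -0.47 to -0.11 log2 for members and from -0.21 to 0.10 for all genes. The shares of all genes given here belong to the main setting, and none were counted under median centring. TC71 also had 18 falls and 9 rises (25.3% and 22.9% of all genes), against 20 and 5 under median centring. In RDES 16 fell and 7 rose (22.5% and 21.4% of all genes). The median was -0.11 log2 in both TC32 and TC71 and -0.08 in RDES.

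In each of the 4 lines, 11 members fell (20.4% of members, 10.1% of all genes): SDHA, UQCRC1, CYC1, UQCC2, UQCC5, COX5A, ATP5F1D, ATP5PD, ATP5PO, ATP5MF and ATP5IF1. Another 5 rose in each of the 4 (9.26% of members, 10.0% of all genes): UQCC1, ATP5MJ, COX10, COX16 and COX19. The 3 PlaB arrays lay below the 3 vehicle arrays in every line for 14 members (25.9%, beside 11.1% of all genes), and above them in every line for the same 5 that rose (9.26%, beside 10.7%). The ATP5MF fall in TC71 was lost without PlaB array 1 of TC71 (adjusted p = 0.054), and the ATP5MJ rise in RDES without PlaB array 1 of RDES (adjusted p = 0.081). No member was called upward in one line and downward in another, which happened for 5.25% of all genes.

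**Figure D2:**
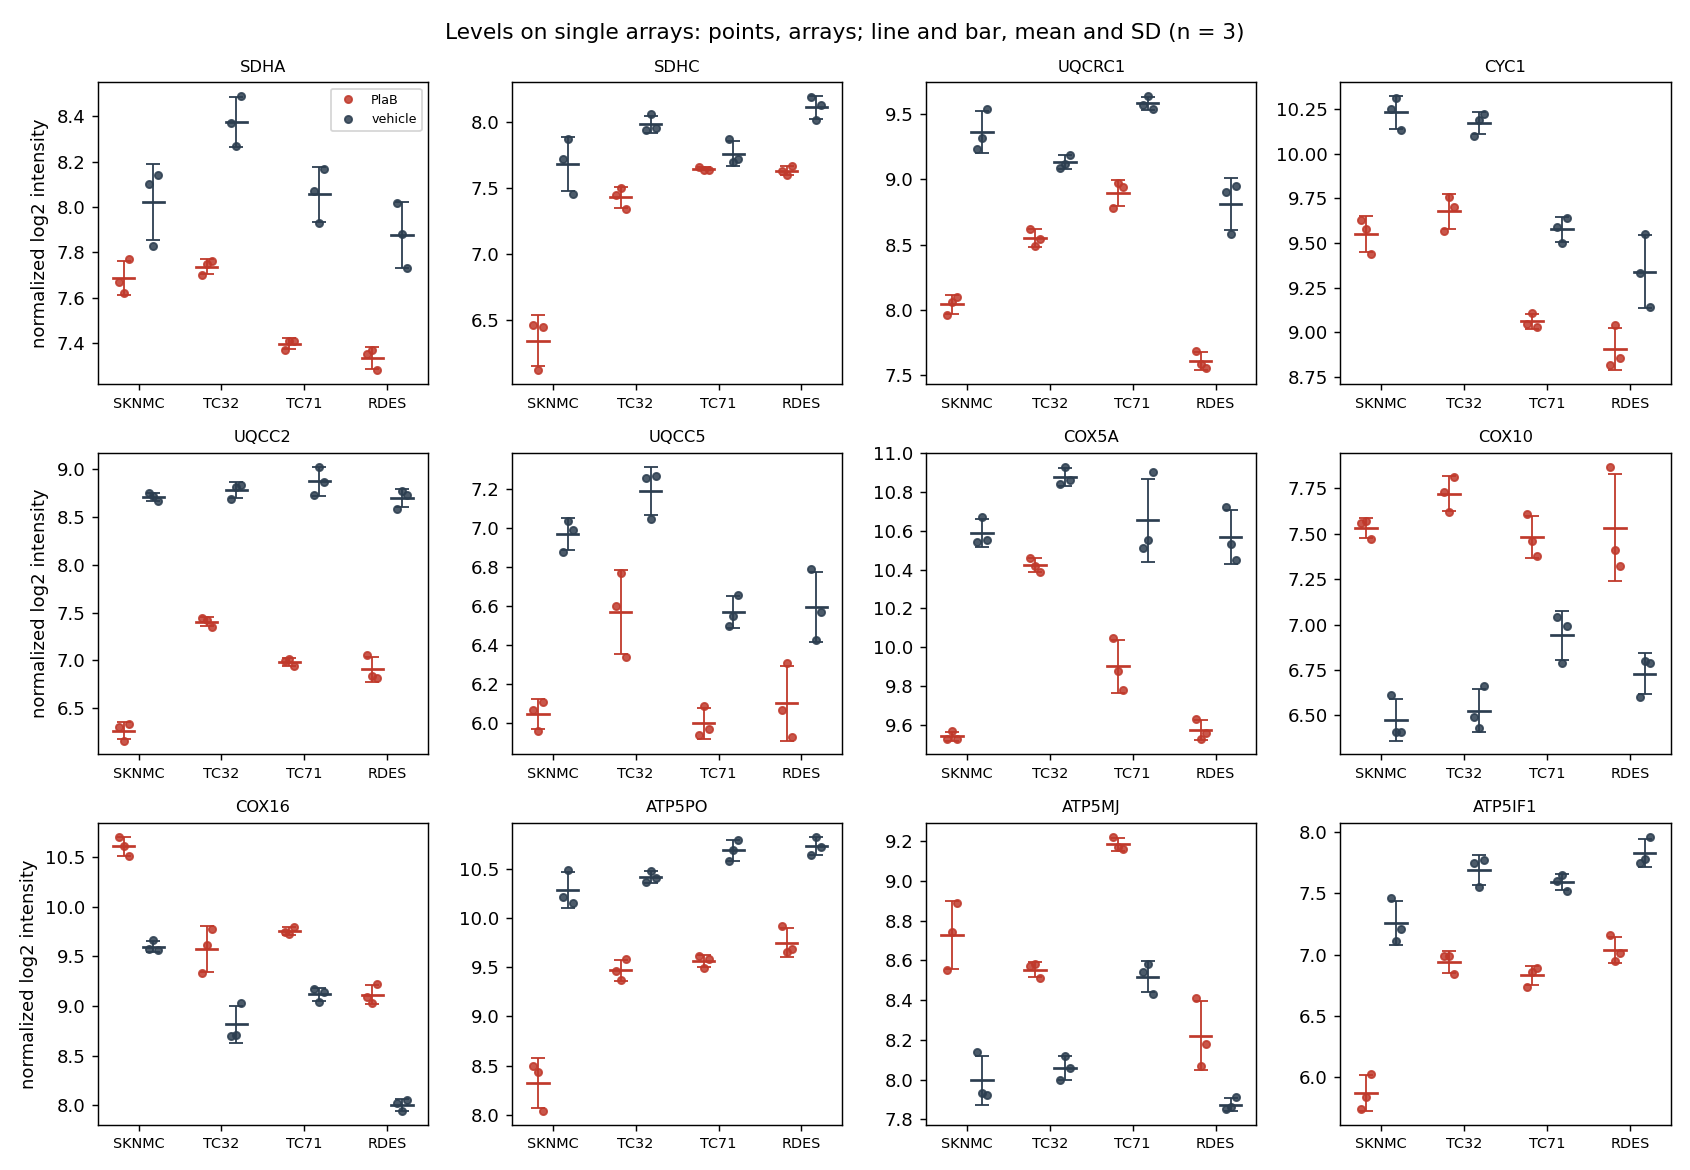
Log2 level on each array for 12 members, with PlaB left of vehicle in each line. Points are arrays and bars show the mean ± SD of 3. The points of both treatments are separated in each line for each gene shown.

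Promoter sequences are shown for the 2 members that fell most and the 2 that rose most in the mean of the lines, because many respiratory chain genes share binding motifs for NRF1, for ETS factors such as GABPA, and for YY1 near their start sites. RefSeq (GRCh38.p14) gave a promoter from 250 bases before to 50 bases after the start for 43 of the 54 tested members. The motifs searched on both strands were the NRF1 motif, CCGGAAGT (ETS) and AAGATGGC (YY1), which do not overlap one another in the promoters printed. The NRF1 motif stood in 13 of 43 member promoters (30.2%), beside 6.28% of all 27305 promoters of the table. The ETS letters stood in 11 (25.6%, beside 4.44% of all), and the YY1 letters in 6 (14%, beside 3.03%). At least 1 of the 3 was present in 23 (53.5%, beside 12.5%). By response, it was present in 11 of 22 promoters of members that fell, 5 of 10 of those that rose and 7 of 11 of the others. The 27305 promoters include those of genes not tested here, whereas other shares of all genes in the text are of the 10882 tested. The motif shares among tested genes were not counted. A match of letters is a description and not a site of binding. Each sequence runs 5′ to 3′ along the gene's strand and the capitals mark the motif letters, with UQCC2 at chr6:33711651-33711950 (minus strand), ATP5PO at chr21:33915755-33916054 (minus), COX10 at chr17:14069254-14069553 (plus) and COX16 at chr14:70359634-70359933 (minus).
UQCC2: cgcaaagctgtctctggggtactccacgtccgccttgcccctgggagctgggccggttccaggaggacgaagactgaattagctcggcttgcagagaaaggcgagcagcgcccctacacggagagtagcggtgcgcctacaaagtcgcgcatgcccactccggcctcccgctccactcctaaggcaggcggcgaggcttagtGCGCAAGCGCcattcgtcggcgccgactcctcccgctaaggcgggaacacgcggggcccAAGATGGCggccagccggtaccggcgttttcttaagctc
ATP5PO: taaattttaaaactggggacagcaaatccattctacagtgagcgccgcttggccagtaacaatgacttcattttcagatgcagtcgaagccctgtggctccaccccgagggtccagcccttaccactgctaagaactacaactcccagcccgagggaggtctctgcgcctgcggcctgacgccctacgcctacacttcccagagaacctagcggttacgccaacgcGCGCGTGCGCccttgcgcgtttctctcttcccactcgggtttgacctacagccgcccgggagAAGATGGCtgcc
COX10: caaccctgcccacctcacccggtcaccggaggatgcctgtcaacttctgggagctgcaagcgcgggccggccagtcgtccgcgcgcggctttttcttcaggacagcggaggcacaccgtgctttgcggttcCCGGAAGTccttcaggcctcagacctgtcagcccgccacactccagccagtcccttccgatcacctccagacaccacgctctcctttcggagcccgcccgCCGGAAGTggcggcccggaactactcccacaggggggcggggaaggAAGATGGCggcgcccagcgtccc
COX16: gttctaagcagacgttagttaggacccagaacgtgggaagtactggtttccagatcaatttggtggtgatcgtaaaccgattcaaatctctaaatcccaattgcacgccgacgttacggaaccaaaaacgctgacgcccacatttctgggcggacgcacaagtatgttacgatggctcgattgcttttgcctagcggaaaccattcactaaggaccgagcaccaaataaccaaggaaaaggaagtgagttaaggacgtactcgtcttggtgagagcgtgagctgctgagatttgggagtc

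In these windows, the UQCC2 promoter holds the NRF1 and YY1 letters, the ATP5PO promoter the NRF1 letters on the opposite strand and the YY1 letters, and the COX10 promoter the ETS letters at 2 places and the YY1 letters once. None of the 3 is present in the COX16 window.

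Complex II was represented by SDHA, SDHC and SDHD, of which 2 fell (66.7%, beside 37.9% of all genes) and 1 passed in neither direction. SDHA is the flavoprotein that oxidises succinate. In SKNMC, SDHA read 7.67, 7.62 and 7.77 with PlaB against 8.10, 7.83 and 8.14 with vehicle, and in TC32 it read 7.70, 7.75 and 7.76 with PlaB against 8.37, 8.27 and 8.49 with vehicle. In TC71, SDHA read 7.37, 7.41 and 7.41 with PlaB against 8.07, 7.93 and 8.17 with vehicle, and in RDES it read 7.35, 7.37 and 7.28 with PlaB against 8.02, 7.88 and 7.73 with vehicle. In all 4 lines the PlaB values lay below the vehicle values. SDHA fell by 0.54 ± 0.05 log2 on average (SE, 12 PlaB and 12 vehicle arrays, adjusted p = 1.5e-10), and its other probe fell by 0.73. The responses of the lines did not differ past the threshold (F-test adjusted p = 0.21).

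SDHC, one of the pair of membrane anchors that hold haem b and bind ubiquinone, fell by 0.62 ± 0.05 log2 (adjusted p = 1.9e-11). In SKNMC, SDHC read 6.46, 6.12 and 6.45 with PlaB against 7.72, 7.87 and 7.46 with vehicle, and in TC32 it read 7.45, 7.50 and 7.34 with PlaB against 7.94, 8.06 and 7.96 with vehicle. In TC71, SDHC read 7.66, 7.64 and 7.64 with PlaB against 7.87, 7.70 and 7.72 with vehicle, and in RDES it read 7.63, 7.60 and 7.67 with PlaB against 8.19, 8.02 and 8.13 with vehicle. The treatments were apart in every line, widely in SKNMC and by a narrow margin in TC71. Its response ranged over 1.22 log2 units between lines (F-test adjusted p = 3.4e-06), with -1.34 ± 0.11 in SKNMC and -0.12 ± 0.11 in TC71. The dimmer SDHC probe gave -0.23 ± 0.18 in SKNMC, where it was not called, and a range between lines of 0.49 (F-test adjusted p = 0.37).

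SDHD, the other anchor, gave -0.04 ± 0.09 log2 (adjusted p = 0.68). In SKNMC, SDHD read 4.50, 5.24 and 4.61 with PlaB against 5.28, 4.94 and 5.10 with vehicle, and in TC32 it read 5.69, 5.42 and 5.34 with PlaB against 5.83, 5.48 and 5.12 with vehicle. In TC71, SDHD read 5.25, 5.72 and 5.58 with PlaB against 5.46, 5.60 and 5.48 with vehicle, and in RDES it read 5.40, 5.73 and 5.34 with PlaB against 5.73, 5.14 and 5.20 with vehicle. The treatments overlapped in each line. Among the scalings, SDHD was called under median centring alone, at -0.30. Without PlaB array 2 of SKNMC its SKNMC value was called (adjusted p = 0.012).

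Of the 9 subunit genes of complex III measured, 4 fell and 2 rose (44.4% and 22.2%, beside 37.9% and 32.3% of all genes). The core protein UQCRC1 and the catalytic cytochrome c1, CYC1, were lower in each line, while among the small subunits UQCRQ fell and UQCR10 and UQCR11 rose. In SKNMC, UQCRC1 read 7.96, 8.06 and 8.10 with PlaB against 9.23, 9.32 and 9.54 with vehicle, and in TC32 it read 8.62, 8.49 and 8.54 with PlaB against 9.09, 9.12 and 9.19 with vehicle. In TC71, UQCRC1 read 8.78, 8.97 and 8.94 with PlaB against 9.57, 9.64 and 9.54 with vehicle, and in RDES it read 7.68, 7.58 and 7.55 with PlaB against 8.90, 8.58 and 8.95 with vehicle. No PlaB array reached a vehicle array of its line, and the shift was widest in SKNMC and RDES. UQCRC1 fell by 0.95 ± 0.05 log2 (adjusted p = 5.5e-16), and the drop differed between lines (F-test adjusted p = 0.00023): it was greater in SKNMC than in TC32 by 0.74 ± 0.15 log2 (adjusted p = 0.00042) but not shown to differ from RDES (-0.12 ± 0.15, adjusted p = 0.63).

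CYC1 carries the haem that hands electrons to cytochrome c. In SKNMC, CYC1 read 9.63, 9.58 and 9.44 with PlaB against 10.25, 10.31 and 10.13 with vehicle, and in TC32 it read 9.57, 9.76 and 9.70 with PlaB against 10.10, 10.19 and 10.22 with vehicle. In TC71, CYC1 read 9.05, 9.11 and 9.03 with PlaB against 9.59, 9.50 and 9.64 with vehicle, and in RDES it read 8.82, 9.04 and 8.86 with PlaB against 9.33, 9.55 and 9.14 with vehicle. The levels were lower with PlaB on every array of each line. CYC1 fell by 0.53 ± 0.05 log2 (adjusted p = 3.5e-10), and the lines were not shown to differ (-0.68 to -0.43, F-test adjusted p = 0.48). The second core protein, UQCRC2, fell by 0.33 ± 0.07 log2 (adjusted p = 8.3e-05) at levels close to background. It was detected on no PlaB array of TC32 or RDES, and in TC32 it was at least 1.22-fold lower with PlaB. Its probe passed the filter through vehicle groups alone, where it was higher. Such a probe is more likely to show a fall, so its p-value and its place among the falls carry that limit. UQCRQ, a subunit that contacts cytochrome b, fell by 0.20 ± 0.05 log2 (adjusted p = 0.0017), with a response of -0.57 ± 0.11 in SKNMC and of -0.12 to -0.03 in the other lines.

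UQCR10, a small subunit next to the iron-sulfur protein, gave opposite directions by probe. On its brightest probe, in SKNMC, UQCR10 read 6.95, 7.02 and 6.90 with PlaB against 7.13, 7.06 and 6.75 with vehicle, and in TC32 it read 7.84, 7.70 and 7.53 with PlaB against 7.29, 6.94 and 7.34 with vehicle. In TC71, UQCR10 read 8.03, 7.93 and 8.0 with PlaB against 7.82, 7.70 and 7.33 with vehicle, and in RDES it read 7.30, 7.45 and 7.45 with PlaB against 6.62, 6.90 and 6.74 with vehicle. The treatments overlapped in SKNMC and were apart, with PlaB higher, in the other lines. The TC71 rise was lost without vehicle array 3 or PlaB array 1 of TC71 (adjusted p = 0.056 to 0.18). This probe rose by 0.37 ± 0.06 log2 (adjusted p = 7.9e-06; under median centring 0.11, not called, adjusted p = 0.24), while the dimmer probes ILMN_2366710 and ILMN_2366714 fell by 0.25 ± 0.06 (adjusted p = 0.00024) and 0.41 ± 0.07 (adjusted p = 6e-06). UQCR11 rose by 0.15 ± 0.06 log2 with adjusted p = 0.047, a call lost in 20 of 35 alternatives, 15 of which leave out a single array. Under median centring it was called as a fall instead (-0.16, adjusted p = 0.042). UQCRB at 0.05 ± 0.08 and the hinge protein gene UQCRH at -0.06 ± 0.05 were not called on their brightest probes. The dimmer UQCRH probe rose by 0.30 ± 0.08. A dimmer UQCRB probe rose by 0.23 ± 0.06 at levels near background, and was detected on 14 of the 24 arrays. It passed the filter through PlaB groups alone, where it was higher, and such a probe is more likely to show a rise. UQCRHL, a near copy of UQCRH whose signal cannot be separated from that of UQCRH with certainty, gave -0.13 ± 0.08.

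Among the assembly factors of complex III, UQCC2 and UQCC5 fell in every line and UQCC1 and UQCC3 rose on average. UQCC2, which with UQCC1 receives newly made cytochrome b, changed most of all 54 members. In SKNMC, UQCC2 read 6.30, 6.16 and 6.33 with PlaB against 8.75, 8.72 and 8.67 with vehicle, and in TC32 it read 7.44, 7.42 and 7.35 with PlaB against 8.69, 8.82 and 8.84 with vehicle. In TC71, UQCC2 read 6.99, 7.02 and 6.94 with PlaB against 8.73, 9.03 and 8.87 with vehicle, and in RDES it read 7.06, 6.84 and 6.82 with PlaB against 8.59, 8.77 and 8.73 with vehicle. The groups lay more than 1 log2 unit apart in each line. UQCC2 fell by 1.88 ± 0.05 log2, a 3.68-fold lower level (adjusted p = 2.7e-23). Its response was -2.45 in SKNMC, -1.38 in TC32, -1.90 in TC71 and -1.79 in RDES (F-test adjusted p = 1.1e-05), and the SKNMC response was lower than that of each other line.

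UQCC5, a further factor of early complex III assembly, fell by 0.65 ± 0.06 log2 (adjusted p = 4.4e-11). In SKNMC, UQCC5 read 6.07, 5.96 and 6.11 with PlaB against 6.88, 7.04 and 6.99 with vehicle, and in TC32 it read 6.60, 6.77 and 6.34 with PlaB against 7.26, 7.05 and 7.27 with vehicle. In TC71, UQCC5 read 5.94, 6.09 and 5.97 with PlaB against 6.5, 6.55 and 6.66 with vehicle, and in RDES it read 6.07, 6.31 and 5.93 with PlaB against 6.79, 6.43 and 6.57 with vehicle. PlaB values were below vehicle values in all lines, and the responses were not shown to differ between lines (F-test adjusted p = 0.14).

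UQCC1, the partner of UQCC2, again divided by probe. In SKNMC, UQCC1 read 6.71, 6.76 and 6.66 with PlaB against 6.28, 6.11 and 6.49 with vehicle, and in TC32 it read 6.56, 6.45 and 6.59 with PlaB against 5.61, 5.60 and 5.71 with vehicle. In TC71, UQCC1 read 7.15, 7.35 and 7.27 with PlaB against 6.99, 6.68 and 6.90 with vehicle, and in RDES it read 7.05, 7.01 and 7.0 with PlaB against 6.53, 6.53 and 6.37 with vehicle. On this brightest probe PlaB was higher on every array within each line, and the mean rise was 0.56 ± 0.05 log2 (adjusted p = 8.9e-11). A second probe, ILMN_1745152, rose by 0.38 ± 0.07 (adjusted p = 7.8e-06). The third probe, ILMN_1724734, fell by 0.62 ± 0.06 (adjusted p = 3.1e-10). In SKNMC, ILMN_1724734 read 4.14, 4.26 and 4.18 with PlaB against 4.72, 4.78 and 4.36 with vehicle, and in TC32 it read 4.74, 4.44 and 4.31 with PlaB against 4.76, 4.58 and 4.88 with vehicle. In TC71, ILMN_1724734 read 4.63, 4.42 and 4.74 with PlaB against 5.74, 5.54 and 5.62 with vehicle, and in RDES it read 4.34, 4.38 and 4.46 with PlaB against 5.31, 5.02 and 5.20 with vehicle. It was lower with PlaB by about 1 log2 unit in TC71, and in SKNMC no PlaB array detected it, which gives a level at least 1.10-fold lower. Which UQCC1 transcripts each probe reads was not tested. UQCC3, which stabilises cytochrome b, rose by 0.29 ± 0.06 log2 (adjusted p = 5.7e-05) and lay at -0.01 under median centring.

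**Figure D3:**
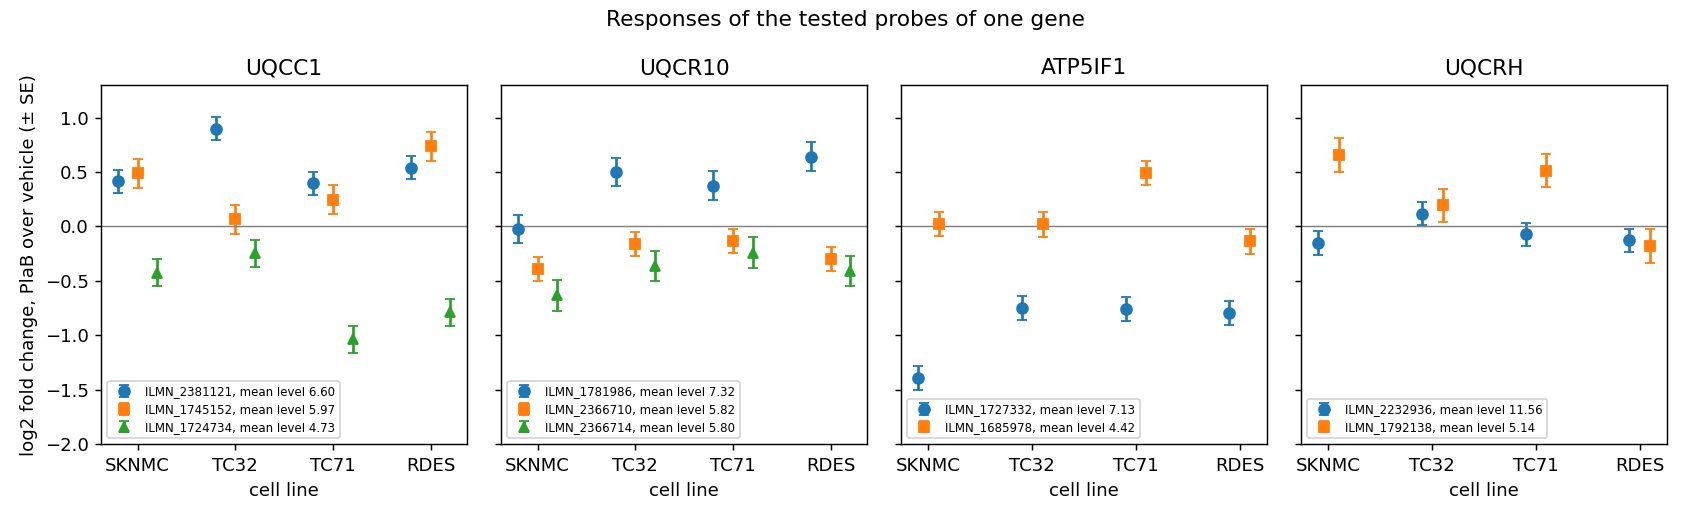
Response in each of the 4 lines (log2 of PlaB over vehicle ± SE) of each tested probe of UQCC1, UQCR10, ATP5IF1 and UQCRH. In the mean of the lines, which is not drawn, UQCC1 and UQCR10 each have probes called in both directions. The dimmer ATP5IF1 probe stands near 0 in SKNMC and TC32 and at 0.49 in TC71.

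Cytochrome c, encoded by CYCS, carries electrons from complex III to complex IV and, once outside mitochondria, helps to activate caspases. In SKNMC, CYCS read 5.43, 6.06 and 6.01 with PlaB against 5.81, 5.48 and 5.48 with vehicle, and in TC32 it read 5.41, 5.23 and 5.30 with PlaB against 4.94, 4.88 and 4.89 with vehicle. In TC71, CYCS read 6.0, 6.06 and 5.74 with PlaB against 6.29, 6.19 and 5.95 with vehicle, and in RDES it read 5.81, 5.42 and 5.95 with PlaB against 5.29, 5.47 and 5.37 with vehicle. In TC32 alone the PlaB arrays lay above the vehicle arrays, and in TC71 the mean was lower with PlaB. CYCS rose by 0.20 ± 0.07 log2 (adjusted p = 0.018), with 0.41 ± 0.15 in TC32, the one line where it was called. Leaving out any of 3 single TC32 arrays raised that line's adjusted p to between 0.056 and 0.082. The mean call was made under 4 of 7 scalings. It was lost under median centring (-0.09, adjusted p = 0.37), with centring restricted to probes that every array detected (0.13, adjusted p = 0.12) and without background correction (0.08, adjusted p = 0.053).

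Of the 10 structural genes of complex IV, 3 fell, 2 rose and 5 passed in neither direction, with a median of -0.03 log2. Both shares, 30% falling and 20% rising, were below those of all genes (37.9% and 32.3%). The fall of COX5A exceeded 0.5 log2 and those of COX7A2 and COX4I1 were small. In SKNMC, COX5A read 9.53, 9.57 and 9.53 with PlaB against 10.54, 10.67 and 10.55 with vehicle, and in TC32 it read 10.46, 10.42 and 10.39 with PlaB against 10.84, 10.93 and 10.86 with vehicle. In TC71, COX5A read 10.05, 9.88 and 9.78 with PlaB against 10.51, 10.55 and 10.90 with vehicle, and in RDES it read 9.63, 9.53 and 9.56 with PlaB against 10.72, 10.53 and 10.45 with vehicle. Every PlaB array was below the vehicle arrays of its line. COX5A, a matrix-side subunit, fell by 0.81 ± 0.05 log2 (adjusted p = 2.4e-14), least in TC32 (-0.45) and most in SKNMC (-1.05), and the lines differed (F-test adjusted p = 0.0066). Its neighbour in the enzyme, COX5B, gave -0.06 ± 0.06 (adjusted p = 0.38), and was called downward in SKNMC (-0.42 ± 0.11).

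COX7A2, the form of subunit VIIa used outside muscle, fell by 0.15 ± 0.05 log2 (adjusted p = 0.01), and was called in SKNMC alone among the lines. In SKNMC, COX7A2 read 10.35, 10.46 and 10.24 with PlaB against 11.03, 11.13 and 10.75 with vehicle, and in TC32 it read 10.73, 10.77 and 10.86 with PlaB against 10.71, 10.86 and 10.75 with vehicle. In TC71, COX7A2 read 10.85, 10.98 and 10.93 with PlaB against 10.82, 10.86 and 10.99 with vehicle, and in RDES it read 11.07, 11 and 11.11 with PlaB against 11.13, 11.12 and 11.02 with vehicle. PlaB arrays were lower in SKNMC and overlapped vehicle arrays in the other lines (F-test adjusted p = 0.0012). COX4I1, a large nuclear-encoded subunit, fell by 0.13 ± 0.06 log2 with adjusted p = 0.044, a call lost in 16 of 35 alternatives, 13 of which leave out a single array. It too was called in SKNMC (-0.45 ± 0.11) and stood at 0.26 ± 0.11 in TC32.

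COX6A1 and COX6B1, subunits at the dimer contact and the intermembrane face of the enzyme, rose by 0.20 ± 0.05 and 0.18 ± 0.06 log2 (adjusted p = 0.0016 and 0.0066). In SKNMC, COX6A1 read 9.41, 9.28 and 9.17 with PlaB against 9.17, 9.25 and 9.13 with vehicle, and in TC32 it read 9.04, 9.26 and 9.15 with PlaB against 9.01, 9.15 and 9.22 with vehicle. In TC71, COX6A1 read 9.33, 9.62 and 9.28 with PlaB against 9.25, 9.11 and 9.17 with vehicle, and in RDES it read 9.24, 9.39 and 9.17 with PlaB against 8.70, 8.83 and 8.88 with vehicle. PlaB arrays of COX6A1 were higher in TC71 and RDES and overlapped with vehicle in SKNMC and TC32. Neither rise was called under median centring. COX7B gave 0.06 ± 0.09 log2 in the mean (adjusted p = 0.56) but differed between lines over a range of 1.00 (F-test adjusted p = 0.006). In SKNMC, COX7B read 6.30, 7.24 and 6.89 with PlaB against 6.49, 6.42 and 6.61 with vehicle, and in TC32 it read 6.59, 6.52 and 6.24 with PlaB against 7.36, 7.11 and 6.81 with vehicle. In TC71, COX7B read 6.44, 6.32 and 6.32 with PlaB against 5.72, 6.42 and 5.87 with vehicle, and in RDES it read 6.74, 6.91 and 7.24 with PlaB against 6.96, 6.54 and 6.66 with vehicle. TC32 was the one line in which the treatments were apart, with PlaB lower (-0.65 ± 0.18, adjusted p = 0.0051), while SKNMC, TC71 and RDES had uncalled values of 0.25 to 0.35. Without PlaB array 1 the SKNMC value was called (adjusted p = 0.011), and without vehicle array 2 the TC71 value (adjusted p = 0.02). COX6C (0.10 ± 0.06), COX7C (-0.01 ± 0.05) and COX8A (-0.09 ± 0.06) were not called in the mean.

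COX7A2L, which joins complex III to complex IV in supercomplexes, fell by 0.17 ± 0.06 log2 (adjusted p = 0.012). In SKNMC, COX7A2L read 8.01, 8.11 and 8.07 with PlaB against 8.35, 8.29 and 8.34 with vehicle, and in TC32 it read 8.28, 8.20 and 8.01 with PlaB against 8.47, 8.44 and 8.47 with vehicle. In TC71, COX7A2L read 8.75, 8.38 and 8.84 with PlaB against 8.70, 8.92 and 8.67 with vehicle, and in RDES it read 8.24, 8.23 and 8.35 with PlaB against 8.26, 8.44 and 8.10 with vehicle. PlaB arrays were lower in SKNMC and TC32 and overlapped vehicle arrays in TC71 and RDES. In TC32, the one line with a call (adjusted p = 0.037), leaving out any of 5 single TC32 arrays raised the adjusted p to between 0.054 and 0.18.

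Assembly factors of complex IV had more rises than falls: of 8 measured, 4 rose (COX10, COX16, COX19 and COX11), 1 fell (COX20) and 3 passed in neither direction, with a median of 0.21 log2. Rises made up 50% and falls 12.5%, beside 32.3% and 37.9% of all genes. COX10 makes the farnesylated haem that becomes haem a. In SKNMC, COX10 read 7.56, 7.57 and 7.47 with PlaB against 6.61, 6.41 and 6.41 with vehicle, and in TC32 it read 7.73, 7.62 and 7.81 with PlaB against 6.49, 6.43 and 6.66 with vehicle. In TC71, COX10 read 7.61, 7.46 and 7.38 with PlaB against 7.04, 6.79 and 6.99 with vehicle, and in RDES it read 7.87, 7.41 and 7.32 with PlaB against 6.60, 6.80 and 6.79 with vehicle. PlaB values exceeded vehicle values in each line, and TC71 had the narrowest gap. COX10 rose by 0.90 ± 0.06 log2 (adjusted p = 4.2e-14), and lines differed (F-test adjusted p = 0.013). COX15, which acts on haem after COX10, gave 0.12 ± 0.07 (adjusted p = 0.12).

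COX16 takes part in the assembly of the mitochondrially encoded subunits. In SKNMC, COX16 read 10.70, 10.61 and 10.51 with PlaB against 9.57, 9.66 and 9.56 with vehicle, and in TC32 it read 9.33, 9.61 and 9.78 with PlaB against 8.70, 8.71 and 9.03 with vehicle. In TC71, COX16 read 9.75, 9.72 and 9.80 with PlaB against 9.17, 9.04 and 9.14 with vehicle, and in RDES it read 9.09, 9.03 and 9.22 with PlaB against 8.02, 7.94 and 8.05 with vehicle. Each line showed PlaB arrays above vehicle arrays. COX16 rose by 0.88 ± 0.06 log2 (adjusted p = 9.2e-15), with 0.64 in TC71 and 1.11 in RDES. COX19, needed for copper delivery to the enzyme, rose by 0.78 ± 0.07 log2 (adjusted p = 1.3e-11). In SKNMC, COX19 read 7.31, 7.32 and 7.46 with PlaB against 6.16, 6.23 and 6.85 with vehicle, and in TC32 it read 6.17, 6.07 and 6.12 with PlaB against 5.53, 5.64 and 5.32 with vehicle. In TC71, COX19 read 6.44, 6.28 and 6.47 with PlaB against 5.68, 5.62 and 5.66 with vehicle, and in RDES it read 6.83, 7.10 and 6.88 with PlaB against 5.92, 6.21 and 6.26 with vehicle. Both treatments were apart in every line, and the responses were not shown to differ (F-test adjusted p = 0.5).

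COX11 and COX17 also serve the copper centres. COX11 rose by 0.27 ± 0.08 log2 (adjusted p = 0.0031), with 0.77 ± 0.16 in SKNMC and 0.06 to 0.17 in the other lines, at levels near background. COX17 gave -0.11 ± 0.06 in the mean (adjusted p = 0.12) and -0.47 ± 0.12 in SKNMC, where it was called. COX14, which binds newly made COX1, gave 0.16 ± 0.08 (adjusted p = 0.073). COX20, a chaperone of the COX2 subunit, fell by 0.30 ± 0.06 log2 (adjusted p = 0.00013). In SKNMC, COX20 read 4.31, 4.39 and 4.25 with PlaB against 4.68, 4.78 and 4.68 with vehicle, and in TC32 it read 5.38, 4.99 and 4.91 with PlaB against 5.44, 5.74 and 5.43 with vehicle. In TC71, COX20 read 6.14, 6.07 and 6.25 with PlaB against 6.44, 6.52 and 6.25 with vehicle, and in RDES it read 5.51, 5.53 and 5.95 with PlaB against 5.75, 5.69 and 5.87 with vehicle. PlaB arrays were lower in SKNMC and TC32 and overlapped with vehicle in TC71 and RDES. The COX20 probe was detected on no PlaB array of SKNMC, which gives a level at least 1.17-fold lower there.

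**Figure D4:**
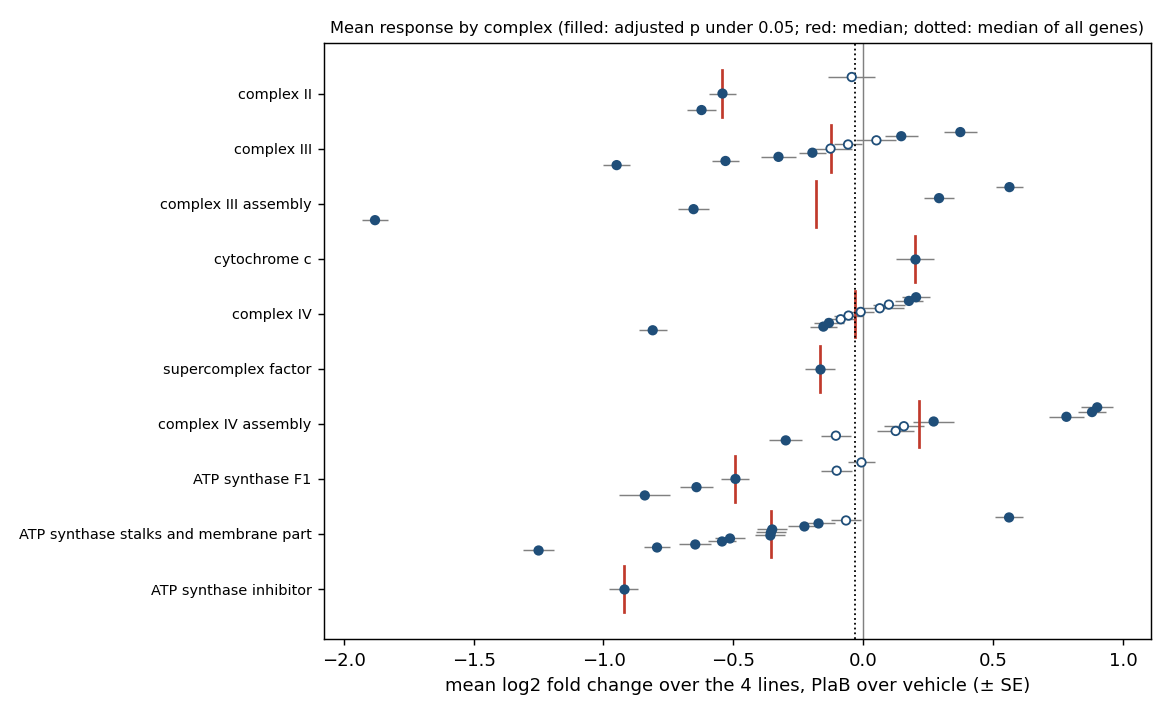
Mean response over the 4 lines (log2 of PlaB over vehicle ± SE) of each tested member, grouped by complex, with the median of each group as a bar and the median of all genes tested (-0.03) as a dotted line. ATP synthase genes lie mostly below the line, and assembly factors of complex IV mostly above it.

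ATP synthase had the most falls: 14 of its 18 genes fell (77.8%, beside 37.9% of all genes), 1 rose and 3 passed in neither direction, with a median of -0.42 log2. The falls included each part of the enzyme that was measured. In the F1 head, 3 of 5 genes fell (median -0.49): ATP5F1C and ATP5F1D, of the rotating stalk, and ATP5F1A, the alpha subunit. ATP5F1A fell by 0.49 ± 0.05 log2 (adjusted p = 2e-09) and its second probe fell by 0.49 as well. Its partner in the catalytic ring, ATP5F1B, gave -0.10 ± 0.06 (adjusted p = 0.13), and the small stalk subunit ATP5F1E gave -0.01 ± 0.05 (adjusted p = 0.91).

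ATP5F1C encodes the gamma subunit, the axle that turns inside the head. In SKNMC, ATP5F1C read 4.23, 4.16 and 4.50 with PlaB against 5.07, 5.00 and 5.12 with vehicle, and in TC32 it read 4.36, 4.68 and 4.72 with PlaB against 5.87, 6.15 and 5.89 with vehicle. In TC71, ATP5F1C read 4.35, 4.98 and 5.48 with PlaB against 5.61, 6.01 and 5.58 with vehicle, and in RDES it read 4.79, 4.82 and 4.54 with PlaB against 5.65, 4.80 and 4.98 with vehicle. The treatments overlapped in RDES and were apart in the other lines, with a wide spread among the TC71 PlaB arrays. ATP5F1C fell by 0.84 ± 0.10 log2 (adjusted p = 8e-09), with -1.38 ± 0.20 in TC32 and -0.42 ± 0.20 in RDES (F-test adjusted p = 0.039). The signal of this probe is dim. ATP5F1D, the delta subunit at the foot of the axle, fell by 0.64 ± 0.06 log2 (adjusted p = 1.3e-10). In SKNMC, ATP5F1D read 8.23, 8.49 and 8.16 with PlaB against 9.15, 9.62 and 9.34 with vehicle, and in TC32 it read 9.24, 9.10 and 9.02 with PlaB against 9.57, 9.63 and 9.65 with vehicle. In TC71, ATP5F1D read 9.46, 9.67 and 9.48 with PlaB against 10.00, 9.90 and 9.88 with vehicle, and in RDES it read 8.20, 7.88 and 8.04 with PlaB against 8.79, 8.72 and 8.41 with vehicle. The arrays were separated in each line, and the dimmer probe fell by 0.25 ± 0.06.

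Of 12 genes for the stalks and the membrane part, 10 fell (83.3%, beside 37.9% of all genes), 1 rose and 1 passed in neither direction (median -0.36). ATP5PO encodes OSCP, which ties the peripheral stalk to the top of the head, and was second to UQCC2 in size of change. In SKNMC, ATP5PO read 8.50, 8.44 and 8.04 with PlaB against 10.21, 10.49 and 10.15 with vehicle, and in TC32 it read 9.46, 9.37 and 9.58 with PlaB against 10.36, 10.48 and 10.40 with vehicle. In TC71, ATP5PO read 9.61, 9.49 and 9.58 with PlaB against 10.58, 10.69 and 10.79 with vehicle, and in RDES it read 9.92, 9.65 and 9.68 with PlaB against 10.64, 10.82 and 10.72 with vehicle. The treatments were well apart in each line, most of all in SKNMC. ATP5PO fell by 1.25 ± 0.06 log2, a 2.38-fold lower level (adjusted p = 1.2e-17), and SKNMC stood apart at -1.96 ± 0.12 beside -1.12 to -0.94 in the other lines (F-test adjusted p = 3.3e-05).

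ATP5PD, subunit d of the peripheral stalk, fell by 0.79 ± 0.05 log2 (adjusted p = 1.3e-14). In SKNMC, ATP5PD read 9.76, 9.67 and 9.83 with PlaB against 10.82, 10.92 and 10.67 with vehicle, and in TC32 it read 9.77, 9.79 and 9.56 with PlaB against 10.35, 10.41 and 10.46 with vehicle. In TC71, ATP5PD read 10.51, 10.34 and 10.36 with PlaB against 11.02, 11.04 and 11.02 with vehicle, and in RDES it read 9.85, 9.85 and 9.91 with PlaB against 10.53, 10.81 and 10.68 with vehicle. On this brightest probe no arrays of the treatments overlapped in any line. The dimmer probe, ILMN_1794912, fell by 0.49 (adjusted p = 1.5e-07). Its arrays overlapped in TC71, at 9.34, 9.46 and 9.66 with PlaB against 9.60, 9.72 and 9.58 with vehicle. The remaining stalk subunits, ATP5PB (subunit b) and ATP5PF (F6), fell by 0.36 ± 0.06 and 0.35 ± 0.06 log2, and the dimmer ATP5PB probe fell by 0.93 ± 0.09.

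The proton-carrying ring is made of subunit c, for which 3 genes encode the same mature peptide, and all 3 fell. ATP5MC1 fell by 0.65 ± 0.06 log2 (adjusted p = 8.7e-11), ATP5MC2 fell by 0.51 ± 0.06 (adjusted p = 5.6e-09) and ATP5MC3 fell by 0.17 ± 0.06 (adjusted p = 0.016). The dimmer ATP5MC2 probes gave -0.10 ± 0.07 and 0.05 ± 0.06 in the mean and were not called there. In single lines, ILMN_1669102 fell in SKNMC (-0.42 ± 0.14, adjusted p = 0.014), while ILMN_1807798 rose in TC71 (0.36 ± 0.11, adjusted p = 0.0077), where the brightest probe fell (-0.59 ± 0.12). The dimmer ATP5MC1 probe fell by 0.24 ± 0.07 (adjusted p = 0.0053). The ATP5MC3 value was -0.43 under median centring and -0.08 without background correction, and was called in both. Around the ring, the membrane subunits ATP5MF (f) and ATP5MG (g) fell by 0.54 ± 0.05 and 0.23 ± 0.06. ATP5ME (e) gave -0.07 ± 0.06 (adjusted p = 0.31) on its brightest probe. Its dimmest probe was called as a rise in the mean (0.17, adjusted p = 0.012) and in TC71 (0.45, adjusted p = 0.0022). That probe was below detection in SKNMC under both treatments.

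ATP5MK and ATP5MJ, small accessory proteins of the membrane part, went in opposite directions. ATP5MK fell by 0.36 ± 0.06 log2 (adjusted p = 2.6e-06). In SKNMC, ATP5MK read 4.19, 4.18 and 4.35 with PlaB against 4.15, 4.23 and 4.32 with vehicle, and in TC32 it read 4.87, 4.96 and 4.92 with PlaB against 5.77, 5.99 and 5.39 with vehicle. In TC71, ATP5MK read 6.49, 6.55 and 6.56 with PlaB against 6.61, 6.73 and 6.63 with vehicle, and in RDES it read 4.85, 4.63 and 4.83 with PlaB against 5.30, 5.24 and 5.29 with vehicle. The probe was not well above background in SKNMC in either treatment, and PlaB arrays were lower in the other lines. The lines differed (F-test adjusted p = 0.00068), and between lines that detected it TC32 responded by -0.67 ± 0.16 log2 relative to TC71 (adjusted p = 0.0044). ATP5MJ rose by 0.56 ± 0.05 log2 (adjusted p = 7.6e-11) and was the one ATP synthase gene to rise. In SKNMC, ATP5MJ read 8.55, 8.74 and 8.89 with PlaB against 8.14, 7.93 and 7.92 with vehicle, and in TC32 it read 8.57, 8.58 and 8.51 with PlaB against 8.0, 8.12 and 8.06 with vehicle. In TC71, ATP5MJ read 9.22, 9.17 and 9.16 with PlaB against 8.54, 8.58 and 8.43 with vehicle, and in RDES it read 8.41, 8.07 and 8.18 with PlaB against 7.85, 7.86 and 7.91 with vehicle. PlaB values lay above vehicle values in all 4 lines.

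ATP5IF1 encodes IF1, the protein that blocks ATP hydrolysis by the enzyme when the proton gradient fails. In SKNMC, ATP5IF1 read 5.74, 5.84 and 6.03 with PlaB against 7.46, 7.11 and 7.21 with vehicle, and in TC32 it read 6.99, 6.99 and 6.84 with PlaB against 7.75, 7.55 and 7.77 with vehicle. In TC71, ATP5IF1 read 6.74, 6.86 and 6.89 with PlaB against 7.60, 7.65 and 7.52 with vehicle, and in RDES it read 7.16, 6.95 and 7.01 with PlaB against 7.75, 7.78 and 7.96 with vehicle. PlaB arrays lay below vehicle arrays in every line, most widely in SKNMC. ATP5IF1 fell by 0.92 ± 0.06 log2 (adjusted p = 2.5e-15), and lines differed (F-test adjusted p = 0.0026). The dimmer probe, ILMN_1685978, gave 0.10 ± 0.06 (adjusted p = 0.12), was below detection in TC32 under both treatments, and rose in TC71 (0.49 ± 0.11).

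The size of the response differed between lines for 28 of the 54 members (51.9%, beside 47.2% of all genes), by an F-test of the line by treatment interaction. SKNMC had the lowest response in 20 of these 28 (71.4%), beside 36.6% of all genes so called. Against TC32, 24 members differed (30.3% of all genes did), 21 of them lower in SKNMC (38.9% of members, 16.8% of all genes). Against TC71, 18 differed (26.3% of all genes), 16 of them lower in SKNMC (29.6%, beside 14.1%). Against RDES, 17 differed (26.7% of all genes), 15 of them lower in SKNMC (27.8%, beside 15.1%). Between the other lines 8 members differed for TC32 and TC71 (18.6% of all genes), 5 for TC32 and RDES (13.2%) and 1 for TC71 and RDES (12.2%). PlaB arrays of SKNMC detected 13821 to 15152 probes, those of TC32 14626 to 15144, those of TC71 15858 to 16997 and those of RDES 15785 to 16308, and the part of this in the line differences was not tested. With arrays centred on their medians the count of 28 became 18, and it became 17 with centring restricted to probes that every array detected. Shares of all genes were not counted under these settings.

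The widest SKNMC differences were in SDHC, at -1.22 ± 0.15 log2 relative to TC71 (adjusted p = 1.3e-06), in UQCC2, at -1.06 ± 0.14 relative to TC32 (adjusted p = 1.9e-06), and in ATP5PO, at -1.02 ± 0.17 relative to TC32 (adjusted p = 3.6e-05). Of the 28, 8 did not have their lowest response in SKNMC. It was lowest in TC32 for ATP5F1C, ATP5MK and COX7B, in TC71 for UQCC1, COX10, COX11 and COX16, and in RDES for ATP5MC2.

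Genes around these complexes were read in the same fit. Of 32 complex I subunits measured, 16 fell and 4 rose (50% and 12.5%, beside 37.9% and 32.3% of all genes, median -0.13 log2), with NDUFA7 at -1.09 ± 0.05 (adjusted p = 2.6e-17), NDUFB5 at -0.85 ± 0.06 and NDUFAB1, the mitochondrial acyl carrier protein, at 0.36 ± 0.09. Of 28 assembly factors of complexes II to V with other names, 14 fell and 10 rose (50% and 35.7%, the share of rises being near that of all genes, median -0.10). DMAC2L, an ATP synthase coupling factor, fell by 1.24 ± 0.07 log2 (adjusted p = 2.9e-15), and LRPPRC, which stabilises mitochondrial messenger RNAs, fell by 1.16 ± 0.06 (adjusted p = 1.9e-16). COA1 and COA6, both assembly factors of complex IV, rose by 0.65 ± 0.06 and 0.63 ± 0.07.

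Of 12 tricarboxylic acid cycle enzymes, 9 fell (75%, beside 37.9% of all genes) and 0 rose (32.3% of all genes did), with a median of -0.33 log2, among them IDH3G, a subunit of isocitrate dehydrogenase, at -1.39 ± 0.07 (adjusted p = 3e-17) and IDH2 at -1.17 ± 0.06 (adjusted p = 5.6e-17). Of 12 regulators of mitochondrial transcription and replication, 9 rose and 2 fell (75% and 16.7%, beside 32.3% and 37.9% of all genes, median 0.56). TWNK, the mitochondrial DNA helicase, rose by 1.25 ± 0.05 (adjusted p = 2.4e-19) and TFAM, which packages mitochondrial DNA and starts its transcription, rose by 1.12 ± 0.06 (adjusted p = 5.1e-17). TFB1M, which methylates mitochondrial ribosomal RNA, fell by 0.79 ± 0.06 (adjusted p = 8e-13), and POLG2, a subunit of the mitochondrial DNA polymerase, fell by 0.24 ± 0.10 (adjusted p = 0.03). Of 8 genes for the release and use of cytochrome c, 5 fell and 2 rose (62.5% and 25%, beside 37.9% and 32.3% of all genes, median -0.21), with HTRA2, a protease, at -0.62 ± 0.06, and DIABLO, an antagonist of caspase inhibitors, at 0.67 ± 0.05 (adjusted p = 2.4e-13).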

How the data were processed

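Total RNA of 24 cell line samples was measured on Illumina beadchips. The deposited table holds probe intensity on a linear scale, not normalised, per the file headers, with a detection p-value beside each value, per the file headers. The deposited series matrix holds log2 values, used as an alternative for TC32 alone, where they matched log2 intensities quantile-normalised within the line for 99.996% of probes (tolerance 0.03). GenomeStudio, R 3.0.2 and lumi are listed in the submitters' processing notes, with no steps. The genome build of the probes is not given in the sources used here.

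Background parameters were inferred from the detection p-values by limma 3.58.1 (R 4.3.3). After addition of 16 to each value, all 24 arrays were quantile-normalised and log2-transformed. Probes were tested where every array of some group gave a detection p under 0.05 (17557 of 47323). One group-means model of 24 arrays was fitted with lmFit and eBayes. Its contrasts were PlaB minus vehicle in each line, their mean, an F-test of differences between lines and the 6 pairwise differences. P-values were adjusted by Benjamini-Hochberg over all tested probes. A gene was read from its brightest tested probe. The limma step alone was tested on simulated log2 levels. The background correction, normalisation, filter and choice of probe were not tested. Symbols came from the supplied annotation: 30112 probes had 1 symbol, 8 several and 17203 none. Promoters came from RefSeq.

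The labels number the samples 1 to 3. Deviations from group means correlated at -0.041 to 0.054 between PlaB and vehicle samples of one number, so no pairing was used. Members and gene lists were chosen with earlier results of these data known. Members were named complex by complex. Values of every array were given for, in each complex, up to 2 members that fell most and the 1 that rose most among those called, for the 6 with the widest range between lines among those called by the F-test, for those with probes called in opposite directions, and for SDHA, SDHC, SDHD and CYCS. COX16 and COX19 were added after their values were seen. Alternatives changed the scaling, background correction, offset, filter, probe, samples in the fit and replicate block, or left out each array.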

Additional observations from a re-analysis of the deposited data

Results flagged for a closer look

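The responses of 28 members to PlaB differed between the 4 lines by an F-test of the line by treatment interaction (limma, adjusted p under 0.05), and each is given below by its range, the highest minus the lowest line response in log2 units. With a range over 1 unit, the falls of SDHC (range 1.22), UQCC2 (1.06) and ATP5PO (1.02) were deepest in SKNMC. COX7B had a range of 1.001 and went against that order, with -0.65 in TC32 and 0.25 to 0.35 in the other lines.

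Among ATP synthase genes, the range was 0.96 for ATP5F1C and 0.80 for ATP5MK, both lowest in TC32. The ATP5MK range has SKNMC at its top, where neither treatment detected the probe, and TC32 minus TC71, among lines that detected it, was -0.67. It was 0.76 for ATP5MC1, 0.71 for ATP5F1A, 0.68 for ATP5F1D, 0.64 for the inhibitor gene ATP5IF1, 0.63 for ATP5MF, 0.57 for ATP5PF and 0.54 for ATP5PB, all lowest in SKNMC. ATP5MC2 had a range of 0.58, with -0.11 in TC32 and -0.59 to -0.70 in the other lines.

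Among complex III genes, the range was 0.74 for UQCRC1, 0.67 for UQCR10, 0.59 for UQCR11 and 0.54 for UQCRQ, each lowest in SKNMC, and 0.50 for the assembly factor UQCC1, lowest in TC71. Among complex IV subunits it was 0.72 for COX6B1, 0.70 for COX4I1, 0.65 for COX7A2, 0.60 for COX5A and 0.55 for COX5B, each lowest in SKNMC. Among its assembly factors it was 0.65 for COX17, lowest in SKNMC, and 0.71 for COX11, 0.65 for COX10 and 0.47 for COX16, each lowest in TC71. COX11 had its highest response in SKNMC.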

How the results depend on the processing

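Calls of members were recomputed under other scalings, background corrections, offsets, filters, probes and samples. Shares of all genes were counted in the main setting alone. With median centring, 6 members rose in the mean of the lines, 33 fell and 3 rose in TC32, 5 rose in TC71, and 18 differed between lines. With centring on probes detected by every array, 17 differed between lines. Other settings kept these counts within 1.5 times the reported ones, single arrays left out included. Leaving out each array in turn gave 26 to 27 falls and 11 to 13 rises in the mean, and 21 to 30 members differing between lines. It gave 25 to 28 falls and 6 to 8 rises in SKNMC, 16 to 18 and 7 to 10 in TC32, 15 to 18 and 8 to 10 in TC71, and 16 to 17 and 6 to 8 in RDES. In the mean of the lines 2 members lost a call that way, COX4I1 (without any of 13 single arrays) and UQCR11 (without any of 15), and 3 gained one.

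Median centring turned the direction, in log2, of UQCC3 (-0.012), UQCR11 (-0.16, called as a fall) and CYCS (-0.086) in the mean, and of COX7A2 (-0.36), COX6A1 (-0.37) and UQCC3 (-0.069) in TC32. Taking each gene from its dimmest tested probe turned UQCRH (0.30), ATP5ME (0.17), UQCR10 (-0.41), ATP5IF1 (0.099) and UQCC1 (-0.62) in the mean. It also turned UQCRH (0.65), ATP5IF1 (0.025) and UQCC1 (-0.42) in SKNMC, UQCR10 (-0.36), ATP5IF1 (0.020) and UQCC1 (-0.25) in TC32, and UQCR10 (-0.41) and UQCC1 (-0.79) in RDES. In TC71 it turned UQCRH (0.51), ATP5ME (0.45), ATP5MC2 (0.21), ATP5MC1 (0.020), UQCR10 (-0.24), ATP5IF1 (0.49) and UQCC1 (-1.04). The cause was not tested.

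The labels do not say whether samples of one number belong together, and the main fit used no pairing. With the replicate number as a block, 27 members fell and 12 rose in the mean of the lines, 27 and 6 in SKNMC, 17 and 9 in TC32, 17 and 9 in TC71, 16 and 7 in RDES, and 26 differed between lines. Signals near background limit dim probes, where a missed call does not show an unchanged level.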

Other observations

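The 8 member genes without a tested probe were mostly isoforms known for restricted expression, and none was seen on more than a minority of the 24 arrays. COX6A2 and COX7A1 are the heart and skeletal muscle forms of their subunits, and their probes were detected on 2 arrays and 0 arrays. COX6B2, COX7B2 and COX8C are known from testis. The probes of COX7B2 and COX8C were detected on 0 arrays, and those of COX6B2 on 1 array and 0 arrays. COX4I2, the form of subunit 4 known from lung, was detected on 0 arrays. The common forms COX6A1, COX6B1, COX7A2, COX7B and COX4I1 were all above the filter. COX18, which inserts part of COX2 into the membrane, was detected on 1 array by one probe and on 2 by the other, and UQCC6 on 9 arrays, 4 with PlaB and 5 with vehicle. A probe below the filter was not detected on all 3 arrays of any group, which does not show that its transcript was absent.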
